A study of Homo sapiens with 8 samples.

Results

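MEG3 TFR2 is one of 3 biotin-labelled RNA oligonucleotides used to pull DNA out of sonicated human genomic DNA, and its recovery is compared here with beads that received no oligonucleotide. All rows of its 2 deposited region lists were taken, 73546 captured regions with more signal with the oligonucleotide and 10944 control regions with more signal without it. They make up 84490 of the 327994 regions of the series. The DNA came from H1, an established human embryonic stem cell line, and was freed of RNA and sheared to 200 to 300 bp. In the MEG3 TFR2 group, 6 to 7 µg of this DNA was kept with 20 pmol of oligonucleotide at 37 °C for 1 h, in a buffer of 5 mM MgCl2 with 50 mM KCl. Complexes were collected on streptavidin beads, washed, and opened with RNases. The no-oligo group was handled alike without an oligonucleotide. Each group had 2 libraries from independent experiments. The starting material of both groups was naked DNA of 1 cell line, so neither chromatin nor transcripts of the cells were present.

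MEG3 is a maternally expressed long noncoding RNA of the imprinted DLK1-DIO3 domain. A long noncoding RNA can meet DNA in a triplex, in which the RNA strand lies in the major groove of the duplex and pairs through Hoogsteen bonds with its purine-rich strand. Stretches of G and A are therefore the DNA most often discussed as triplex sites, and earlier work on MEG3 described such sites near genes of the TGF-beta pathway. Each region in the lists carries a single log2 ratio of oligonucleotide to control, with no value per library and no p-value. The spread between the 2 libraries and the sequencing depth are thus unknown, no test was made, and each spread below is a spread over regions. No expression was measured.

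Promoters show the captured DNA as sequence. A promoter window runs from 250 bases before to 50 bases after a start given by RefSeq on GRCh38.p14, 300 bases in all. The windows below lay wholly inside a captured region, as did 86 windows altogether. The first 6 had the highest log2 ratios, and the last 2, GAP43 and IGF2BP3, had the longest runs made only of purines or only of pyrimidines. Each is written 5′ to 3′ on the gene's strand, with its longest such run in capitals. A pyrimidine run is a purine run on the other strand.

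NLGN2: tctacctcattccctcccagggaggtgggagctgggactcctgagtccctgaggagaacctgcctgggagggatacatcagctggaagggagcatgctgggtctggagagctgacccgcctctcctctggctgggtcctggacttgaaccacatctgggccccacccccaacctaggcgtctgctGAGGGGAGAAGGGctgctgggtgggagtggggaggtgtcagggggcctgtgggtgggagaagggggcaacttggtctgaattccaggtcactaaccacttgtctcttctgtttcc
GFY: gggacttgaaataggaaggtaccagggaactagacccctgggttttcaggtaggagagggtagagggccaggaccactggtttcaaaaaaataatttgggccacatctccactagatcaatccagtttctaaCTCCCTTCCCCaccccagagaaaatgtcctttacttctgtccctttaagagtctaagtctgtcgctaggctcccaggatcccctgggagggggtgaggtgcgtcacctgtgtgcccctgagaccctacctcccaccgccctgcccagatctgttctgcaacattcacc
CDH23: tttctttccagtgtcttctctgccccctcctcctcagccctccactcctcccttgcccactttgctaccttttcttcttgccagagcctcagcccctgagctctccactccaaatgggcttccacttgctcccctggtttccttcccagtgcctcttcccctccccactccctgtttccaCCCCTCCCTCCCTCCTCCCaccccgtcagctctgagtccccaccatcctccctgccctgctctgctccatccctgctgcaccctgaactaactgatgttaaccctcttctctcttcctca
ADGRL3: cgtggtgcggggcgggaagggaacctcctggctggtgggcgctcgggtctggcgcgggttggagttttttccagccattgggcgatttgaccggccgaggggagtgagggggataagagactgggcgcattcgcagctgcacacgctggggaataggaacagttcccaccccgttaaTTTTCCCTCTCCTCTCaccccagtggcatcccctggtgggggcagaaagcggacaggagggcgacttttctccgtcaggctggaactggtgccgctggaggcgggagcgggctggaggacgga
GALP: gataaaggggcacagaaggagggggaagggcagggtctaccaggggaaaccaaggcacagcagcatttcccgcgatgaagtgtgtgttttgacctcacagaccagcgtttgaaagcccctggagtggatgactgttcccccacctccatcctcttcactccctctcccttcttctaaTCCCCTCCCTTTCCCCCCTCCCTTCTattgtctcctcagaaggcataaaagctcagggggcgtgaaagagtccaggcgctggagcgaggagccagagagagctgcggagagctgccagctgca
ASB10: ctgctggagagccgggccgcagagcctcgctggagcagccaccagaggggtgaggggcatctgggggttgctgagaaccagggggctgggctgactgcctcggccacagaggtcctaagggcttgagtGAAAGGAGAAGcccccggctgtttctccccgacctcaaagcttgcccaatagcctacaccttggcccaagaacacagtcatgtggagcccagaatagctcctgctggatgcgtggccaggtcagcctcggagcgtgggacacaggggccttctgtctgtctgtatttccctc
GAP43: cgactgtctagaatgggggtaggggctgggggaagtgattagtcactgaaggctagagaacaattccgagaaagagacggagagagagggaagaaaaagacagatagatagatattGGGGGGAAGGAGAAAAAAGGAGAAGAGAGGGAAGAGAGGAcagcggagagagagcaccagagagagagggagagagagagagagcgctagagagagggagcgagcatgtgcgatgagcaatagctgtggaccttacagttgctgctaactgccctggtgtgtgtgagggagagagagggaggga
IGF2BP3: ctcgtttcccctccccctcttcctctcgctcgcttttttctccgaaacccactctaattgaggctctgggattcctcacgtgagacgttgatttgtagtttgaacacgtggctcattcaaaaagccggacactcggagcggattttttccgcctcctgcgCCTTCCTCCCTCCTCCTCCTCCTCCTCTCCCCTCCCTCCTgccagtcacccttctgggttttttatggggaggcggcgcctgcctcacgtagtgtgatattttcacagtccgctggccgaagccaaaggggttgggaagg

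NLGN2, which encodes a postsynaptic adhesion protein of inhibitory synapses, had the highest ratio of these, 3.06 on the log2 scale or 8.33-fold, over chr17:7407595-7407894 on the plus strand. Its longest run was 13 bases, and several shorter purine stretches follow it. The GFY window, chr19:49425138-49425437 on the plus strand, had a log2 ratio of 2.74 and a run of only 11 bases. The CDH23 window, chr10:71795521-71795820 on the plus strand, lies at a start inside this long cadherin gene. Its log2 ratio was 2.70, and its run of 19 pyrimidines sat among many other C and T stretches.

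The ADGRL3 window belongs to an adhesion receptor of synapses and lies at chr4:61201922-61202221 on the plus strand, with a log2 ratio of 2.68 and a run of 16 bases. GALP, a neuropeptide gene, had a run of 26 bases in its window at chr19:56175758-56176057 on the plus strand and a log2 ratio of 2.36. The ASB10 window, chr7:151187201-151187500 on the minus strand, had a log2 ratio of 2.11 and a run of 11 bases. High ratios thus occurred in windows with long runs and in windows with short ones.

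GAP43, which encodes a protein of growing axons, had 40 purines in a row at chr3:115623260-115623559 on the plus strand, with a log2 ratio of 1.98. IGF2BP3, which encodes an RNA-binding protein, had 40 pyrimidines in a row at chr7:23470442-23470741 on the minus strand, with a log2 ratio of 1.18. The other windows shown were picked for the highest ratios, so the lower ratios of GAP43 and IGF2BP3 follow from the picking. The relation of run length to ratio was not tested.

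Across all windows, purine runs were more frequent in captured promoters. Of 21156 windows at starts of autosomal protein-coding genes, 678 overlapped a captured region, 3.2%, and 44 overlapped a control region, 0.208%. A run of at least 15 purines on either strand was present in 33.9% of captured windows, in 20.0% of windows not captured and in 20.4% of all windows. In the control windows it was present in 6 of 44. Among all captured windows the median longest run was 13 bases, against 11 among those not captured.

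The share of windows that were captured rose with the length of the longest run. It was 1.70% (95% Wilson interval 1.40 to 2.06%) for runs of up to 9 bases and 3.19% (2.87 to 3.53%) for 10 to 14 bases. It was 4.96% (4.23 to 5.80%) for 15 to 19 bases and 6.08% (4.64 to 7.93%) for 20 to 24 bases. For runs of 25 bases or more it was 6.17% (4.43 to 8.54%), which does not differ from the previous class beyond the interval. These intervals cover counting only. A rise was present with the other oligonucleotides too. From runs of up to 9 bases to runs of 25 or more, the share went from 3.03% to 20.6% with MEG3 TFR1. With GATA6-AS TFR1 it went from 12.6% to 24.9%, but was lower at 20 to 24 bases, 20.4%, than at 15 to 19, 24.5%.

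**Figure D1:**
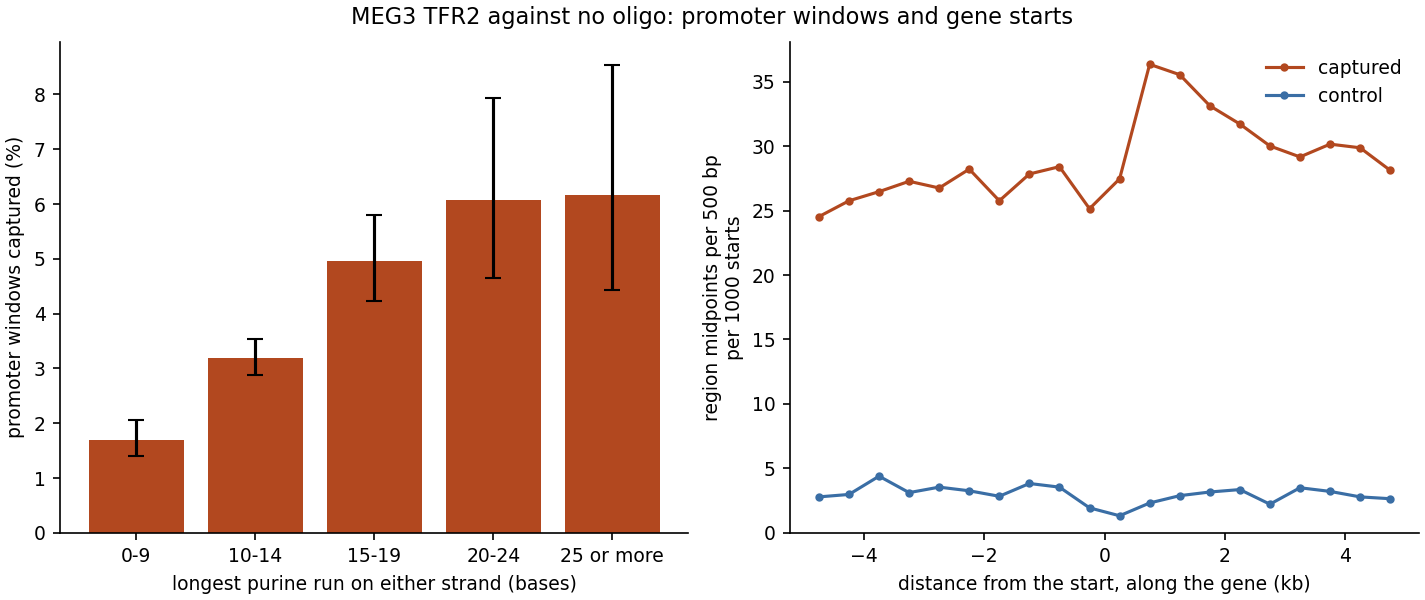
Left, the share of promoter windows overlapped by a captured region (%) against the longest purine run on either strand (bases), with 95% Wilson intervals. The share goes from 1.70% to 6.17%. Right, midpoints of captured and control regions per 500 bp and per 1000 starts, against the distance from the start along the gene (kb). Captured regions reach 36.3 downstream of the start, where control regions are few.

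A set of 5 purine-rich words of 6 letters was searched on both strands, and words may overlap each other and the runs. GGAGGA was in 52.4% of captured and 39.3% of other windows, and GGGAGG in 68.7% and 55.2%. GGAAGG was in 50.3% of captured and 35.8% of other windows, GAGAGA in 31.7% and 21.0%, and GGGGGG in 28.9% and 21.5%. All 5 words were thus more frequent in captured windows. Over all windows their shares were 39.7% for GGAGGA, 55.6% for GGGAGG, 36.3% for GGAAGG, 21.4% for GAGAGA and 21.7% for GGGGGG. A match describes letters in a window and does not mark a binding site.

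Base composition moved with capture too. The median GC content was 59.3% in captured windows and 62.7% in windows not captured. Capture was most frequent at 50 to 60% GC, with 275 of 4634 windows or 5.93% (5.29 to 6.65%). It was 0.665% (0.350 to 1.26%) below 40% GC and 0.559% (0.384 to 0.812%) at 70 to 80% GC. At 80% GC or more, 0 of 738 windows were captured, which allows a share of up to 0.407% (3 counts of the total) or 0.518% as the upper Wilson limit. Captured windows held a purine run of at least 15 bases more often within each GC class. The shares were 26.5% against 19.9% below 50% GC, 33.8% against 23.0% at 50 to 60%, 35.5% against 20.3% at 60 to 70%, and 40.7% of 27 windows against 17.4% above. The part of base composition in the share of captured windows was not tested further.

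Regions were counted along genes from 5 kb before to 5 kb after these starts. Captured region midpoints numbered 24.5 per 500 bp per 1000 starts at the upstream end of this stretch and 25.1 in the last 500 bp before the start. They reached 36.3 between 500 and 1000 bp downstream and were at 28.1 near 5 kb downstream. Control midpoints were lowest just after the start, at 1.32, against 2.79 at the upstream end. At the far end of genes captured midpoints were about as frequent, 35.4 in the last 500 bp, 27.2 in the first 500 bp beyond it and 35.2 between 500 and 1000 bp beyond. Of 15101 coding genes with a window, 2244 (14.9%) had a captured region within 1 kb of a start, 2067 (13.7%) within 1 kb of the far end, and 564 at both.

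Captured DNA formed many short stretches spread over the genome. The 73546 captured regions covered 26.7 Mb, and the 10944 control regions covered 3.59 Mb, which makes 6.72 captured regions for each control region. The median width was 350 bp for captured regions (quartiles 300 and 400 bp) and 300 bp for control regions (200 and 350 bp). The median log2 ratio of captured regions was 1.44 (quartiles 1.20 and 1.76), or 2.71-fold. Control regions had a median of -1.46 (quartiles -1.21 and -1.77), or 2.75-fold the other way. The median sizes of the 2 lists were therefore close.

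The lists differed at their ends. Among captured regions 10354 (14.1%) were past 4-fold, 807 past 8-fold and 80 past 16-fold. Among control regions 1326 (12.1%) were past 4-fold, 43 past 8-fold and 1 past 16-fold. Control regions reached greater widths, up to 7250 bp against 2450 bp, and 54 of them were over 2 kb wide against 2 captured regions.

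Narrow regions had the larger ratios in both lists. Captured regions of 150 to 200 bp had a median log2 ratio of 1.85, and the 1427 of 800 bp or more a median of 1.22. Control regions went from -1.81 at 150 to 200 bp to -0.69 in the 431 of 800 bp or more. Wide captured regions thus kept a larger ratio than wide control regions. No control region overlapped a captured one, 868 (7.93%) lay within 1 kb of one, and the median distance to the nearest was 10850 bp.

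**Figure D2:**
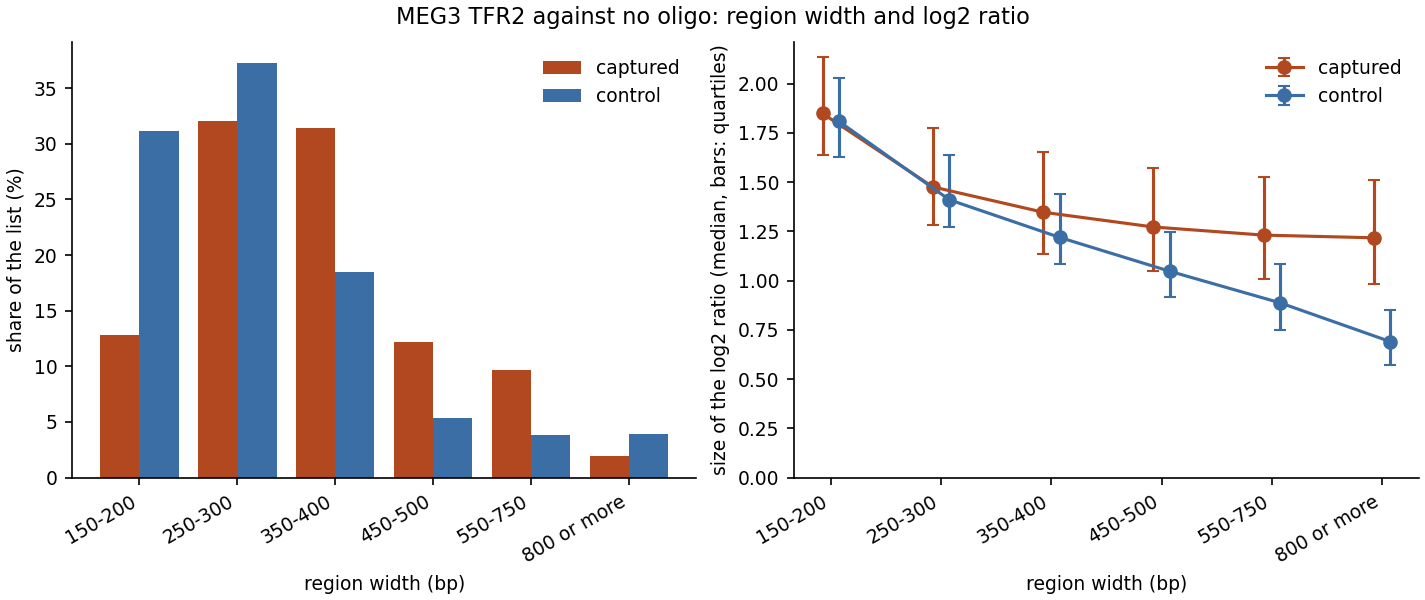
Left, the share of each list (%) by region width (bp), captured in orange and control in blue. Right, the median size of the log2 ratio by width, with bars from the lower to the upper quartile. Captured regions fall from 1.85 to 1.22 and control regions from 1.81 to 0.69 in size.

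The 10 highest captured regions lay mostly outside coding genes. The highest, chr6:25502201-25502500, was 300 bp wide with a log2 ratio of 6.25 or 76.0-fold. It lay in CARMIL1, listed by the authors under its older symbol LRRC16A, a regulator of actin filament ends. The next were 61.5-fold at chr9:115843751-115844000, 310 kb from the nearest coding gene PAPPA, and 47.0-fold at chr4:103942551-103942850, 223 kb from TACR3. Of these 10, a further 2 overlapped coding genes, SHISA9 at 34.5-fold and KIAA1217 at 34.0-fold. The region at chr17:38691201-38691500, at 42.0-fold, was 13.8 kb from MLLT6. All 10 were 150 to 350 bp wide. The lists do not show the no-oligo signal under these ratios. All 10 were whole numbers or fractions with small denominators, such as 76, 61.5, 42.5 and 41.3333. Very low counts without the oligonucleotide would give such values, so these ratios are to be read with that limit. This was not tested. None of the 10 had a listed region with MEG3 TFR1. With GATA6-AS TFR1 only the region at chr16:35746201-35746550 had one, with a log2 ratio of 2.04.

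Wide captured regions had lower ratios. The widest, chr20:30501351-30503800, was 2450 bp wide with a log2 ratio of 1.88 and overlapped no coding gene. The next overlapped MUC3A, a mucin gene, with 2100 bp and 0.83, and NBPF1, a gene of a repeated family, with 2000 bp and 0.43. A region of 1900 bp over ANKRD52 had a log2 ratio of 1.35, and another of 1900 bp at chr22:11066501-11068400 one of 0.68. MUC3A and NBPF1 belong to repetitive families, in which reads of near-identical copies can be split among places. Among captured regions of 800 bp or more, the highest ratio was 10.7-fold, over MUC4, another mucin gene.

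The control list was led by other places. Its farthest log2 ratio, -4.44, was at chr13:54654351-54654550, 286 kb from a coding gene. The next 4 were between -3.72 and -3.79, all 150 bp wide, and 2 of them overlapped the coding genes SLC22A11, a transporter of organic anions, and SPATA6, a gene of sperm development. The 5 widest control regions, 4500 to 7250 bp, had log2 ratios between -0.49 and -0.64 and overlapped no coding gene. Wide control regions were therefore long and shallow, whereas the extreme ones were narrow. The 5 lowest and the 5 widest all had listed regions with negative log2 ratios with MEG3 TFR1 and GATA6-AS TFR1 too. At chr13:54654351-54654550 these were -3.32 and -2.80. The comparisons share their no-oligo libraries, so these places were not particular to MEG3 TFR2.

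Captured density followed gene density from chromosome to chromosome. Chromosome 19, the autosome with the most coding genes per Mb, had 65.1 captured regions per Mb, and chromosome 4 had 14.5. The median over the 22 autosomes was 25.2. Chromosomes 22, 17 and 20 followed chromosome 19, with 52.4, 51.5 and 42.1 per Mb. Spearman's rho with coding genes per Mb was 0.91 for captured and 0.72 for control regions over the 22 autosomes. All chromosomes share the same libraries, so this is a description.

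Control regions on the autosomes went from 2.23 per Mb on chromosome 1 to 8.03 on chromosome 21. Among autosomes, captured regions per control region were highest on chromosome 1, at 11.95, and lowest on chromosome 21, at 2.20, with a median of 6.53. Chromosome 21 was low in captured and high in control regions for its gene density, and its control regions were wider, with a median of 450 bp. They were shallower too, with a median log2 ratio of -1.07. On chromosome X there were 31 captured regions and 1 control region, 0.204 captured per Mb. The other comparisons were nearly empty there too, so this was not particular to MEG3 TFR2. Of the captured regions, 89682 of 89739 with MEG3 TFR1 and 104716 of 104786 with GATA6-AS TFR1 were autosomal.

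**Figure D3:**
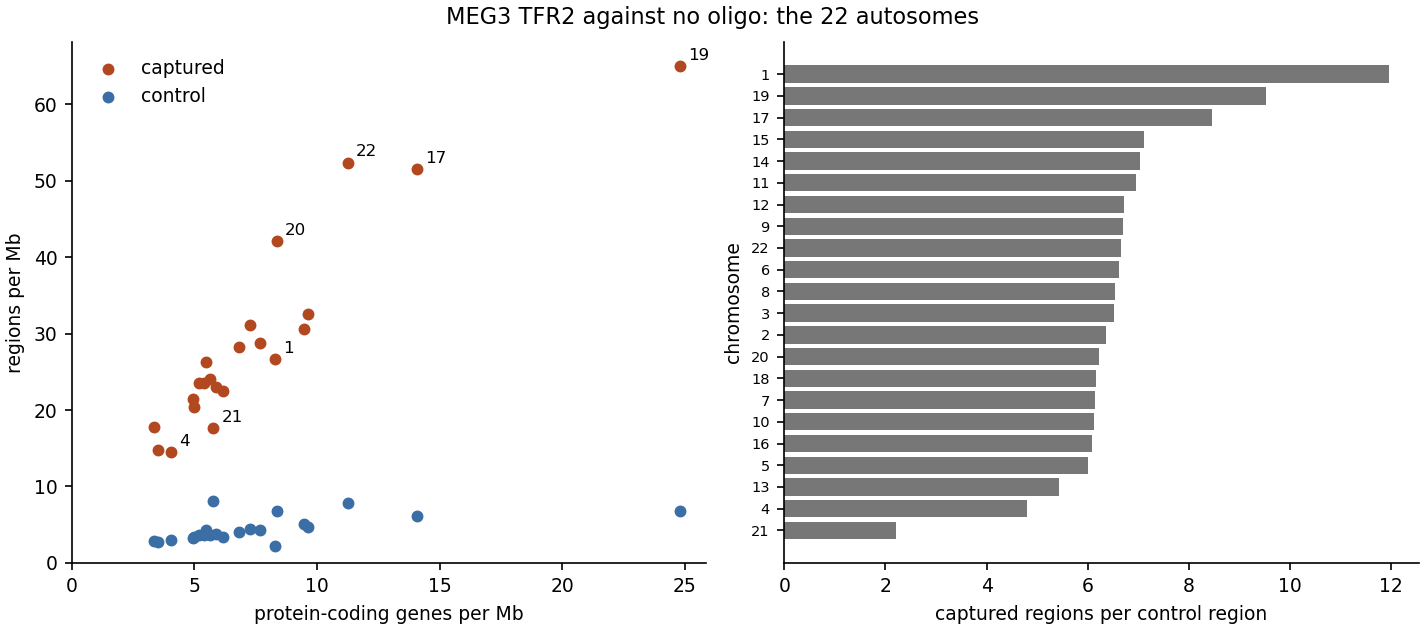
Left, captured and control regions per Mb against protein-coding genes per Mb for the 22 autosomes, with some chromosomes named. Right, captured regions per control region for each autosome. Chromosome 19 stands highest on the left with 65.1 captured per Mb, and chromosomes 1 and 21 are the ends of the right panel with 11.95 and 2.20.

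In windows of 1 Mb the counts varied widely. Of 2749 windows with a region, the median held 19 captured regions, and the 10% with the most held 31.0% of them. The fullest window, chr1:156000001-157000000, had 157 captured and 3 control regions and 39 coding genes. The windows next to it in rank were gene-rich too, with 26 to 39 coding genes and 139 to 149 captured regions among the next 5. Control regions were the more numerous in 67 windows. The fullest for control, chr21:10000001-11000000, had 138 control and 31 captured regions and 1 coding gene.

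Clusters were chains of at least 3 regions of a list, each within 5 kb of the next. On the autosomes 16126 captured regions, 21.9% (21.6 to 22.2%), lay in 4118 clusters, and 876 control regions, 8.01% (7.51 to 8.53%), lay in 133. A denser list makes more chains, so the gaps are given as well. The median gap was 13650 bp in the captured list and 109250 bp in the control list, 0.362 and 0.428 of the mean gap. In both lists the median gap was below the mean gap, and no reference with randomly placed regions was made. Captured regions in clusters had a median log2 ratio of 1.40, against 1.45 outside. For control regions these were -0.85 and -1.50, and their median width was 650 bp in clusters and 250 bp outside.

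The fullest captured cluster held 24 regions over 49.6 kb at chr2:219502501-219552150. Of these, 15 overlapped ASIC4, which encodes a member of the acid-sensing ion channel family, 4 OBSL1, a gene of the cytoskeleton, and 3 TMEM198. A further 3 overlapped GMPPA, an enzyme subunit of sugar nucleotide metabolism, and 2 overlapped CHPF, an enzyme of chondroitin synthesis. Their log2 ratios ran from 0.62 to 2.31 with a median of 1.45, and 21.9% of the cluster was covered. None of its regions was past 8-fold, so the cluster stood out by number and not by ratio.

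The next clusters were alike in that respect. The second held 22 regions at chr20:37405501-37454450, of which 1 overlapped the upper end of SRC, the gene of a tyrosine kinase, and the others lay beyond it. The third, chr6:44262751-44297450, had 17 regions, of which 2 overlapped NFKBIE, an inhibitor of NF-kappaB, 4 TMEM151B and 8 DRC5. A cluster of 16 at chr2:72933001-72963850 had 12 regions over SFXN5, a mitochondrial carrier gene, and 1 over EMX1, a homeobox gene of the forebrain. A cluster of 15 at chr12:7119951-7145050 lay over RBP5, a retinol-binding protein gene, and CLSTN3, a gene of synaptic adhesion. Median log2 ratios of these 4 clusters lay between 1.12 and 1.53. In the same order, their stretches held 27, 7, 8 and 9 captured regions with MEG3 TFR1. With GATA6-AS TFR1 they held 18, 11, 20 and 4.

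Control clusters had another character. The 5 fullest held 28 to 37 regions, lay on chromosomes 10, 1, 4, 19 and 21, and covered no coding gene. Between 49.7% and 71.1% of their length was covered, and their median log2 ratios were between -0.58 and -0.89. The captured list had 0 regions in 4 of them and 1 in the other. The same stretches held 35 to 42 control regions with MEG3 TFR1 and 24 to 41 with GATA6-AS TFR1.

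Genes were read from the authors' names and, beside them, from overlap with RefSeq genes. A name with no mark stands for a region inside the gene, and a name marked with a minus or plus sign for a gene at lower or higher coordinates. Of captured regions 50.9% had an unmarked name, 39.7% only marked names and 9.45% none. For control regions these shares were 55.2%, 37.4% and 7.43%. Of the authors' captured names 72.7% matched the RefSeq table.

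The names did not always give the gene a region lay in. Of the captured regions with only marked names, 7925 (27.2%) overlapped a RefSeq coding gene, as did 1772 (25.5%) of those with no name. Of the 6 captured regions over SMAD2, the first 4 carried names of 4 other genes with a plus mark, the fifth no name and the last SMAD2. Conversely EIF2B5, a translation initiation factor gene, was the unmarked name of 56 captured regions up to 538 kb away, and none overlapped it. Names and overlaps are therefore both given below.

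By overlap, 54.8% of captured and 49.6% of control regions lay over a coding gene, and coding genes made up 43.2% of the autosomal span. Of 19974 coding genes, 14306 (71.6%) were named by a captured region and 11352 (56.8%) were overlapped by one. These 19974 include 848 genes of chromosome X, which held only 31 captured regions and 1 control region, so the shares for autosomal genes are higher. For control regions 5014 (25.1%) were named and 3706 (18.6%) overlapped. An unmarked name was given to 8061 genes (40.4%) by captured and 3351 (16.8%) by control regions. Within 1 kb of either gene end there was a captured region for 22.2% and a control region for 2.22% of genes. Within 5 kb it was 51.7% and 9.79%.

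These counts moved with gene length. Of genes of up to 10 kb, 28.5% were overlapped by a captured region, and of genes over 300 kb, 94.6%. Per length the order turned: captured regions numbered 8.99 per 100 kb in genes of up to 10 kb and 1.91 in genes over 300 kb. For control regions these were 0.535 and 0.281 per 100 kb. Short genes were thus rarely hit, but densely for their length.

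Nearly all of the 10 genes named most often were long. CDH23, a cadherin of hair cell links in the inner ear, was named by 66 captured regions and overlapped by 65, over chr10:71396920-71815947. RBFOX3, a splicing regulator known as the neuronal marker NeuN, was named by 58 and overlapped by 68. CSMD2 was named by 54, MEGF11, a gene of neuronal cell spacing, by 51, and SORCS2, a sorting receptor of neurons, by 51. CELF4, a splicing regulator of neurons, was named by 50, GRIK4, a kainate receptor subunit, by 49, the cadherin gene CDH4 by 47 and the adhesion gene SDK2 by 45. For these genes names and overlaps were close. EIF2B5, named by 57, was the exception described above.

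Among regions named for these genes the highest log2 ratio was 3.91 for GRIK4, 3.66 for RBFOX3, 3.22 for CDH4, 3.15 for CSMD2, 3.12 for CELF4 and 3.04 for CDH23. For MEGF11, SDK2 and SORCS2 it was 2.81, 2.55 and 2.51. CELF4 had no control region, and MEGF11 had 5 over it. Other long genes were hit more often than their names show. RBFOX1 was named by 13 captured regions and overlapped by 56, and GSE1 was named by 3 and overlapped by 46. These last 2 genes were picked after their values were seen.

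Among coding genes of at least 20 kb, captured regions were densest over ZNF385A, a zinc finger gene, with 11 regions or 49.6 per 100 kb, of which 1 carried its name. ASIC4 followed with 15 regions or 47.3 per 100 kb. VASH1, an inhibitor of angiogenesis, had 41.8 per 100 kb, and RARA, the retinoic acid receptor alpha, 41.3. MEF2D, a transcription factor of muscle and neurons, had 40.5, SPOCK2, a proteoglycan gene, 40.0, and SAMD14 39.8. ERFL had 38.6. Over all coding genes the value was 3.22 per 100 kb.

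RARA shows how such a gene looked in detail. Its 20 captured regions, over chr17:40309180-40357643, had log2 ratios from 0.75 to 3.74 with a median of 1.59 and widths of 150 to 800 bp. The highest was 13.3-fold at chr17:40346301-40346550, and the next 11.7-fold at chr17:40319201-40319450. High and low regions alternated along the gene, and no control region lay over it. Of the 20, 11 carried the name RARA.

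A few genes held many control regions. KANSL1, a subunit of a histone acetyltransferase complex, was named by 30 control regions, with log2 ratios from -0.46 to -2.05, and by 17 captured ones. TPTE, a phosphatase gene of testis, was named by 23 control and 7 captured regions, and DUSP22, another phosphatase gene, by 18 and 16. MRPL48, a mitochondrial ribosome gene, was named by 14 and 2, with 6 captured regions over it, and KMT2C, a histone methyltransferase gene, by 13 and 2. DUSP22 had 14 control and 10 captured regions over it. The captured regions over KANSL1 had log2 ratios up to 2.21, so both lists were present in this gene.

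The 346 genes in 14 lists were read against these shares of all coding genes, without a test. In 12 of 14 lists the share named by a captured region was above 71.6%, and in 11 of 14 the overlapped share was above 56.8%. The shares of all coding genes were not matched for gene length. Of genes of up to 10 kb 28.5% were overlapped, and of genes over 300 kb 94.6%. Density went the other way, from 8.99 to 1.91 per 100 kb. Several lists hold mostly long genes, so the density per length is given with each. The 56.8% also includes genes of chromosome X, where captured regions were few. The WNT list, at 58.6%, lay closest above it.

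**Figure D4:**
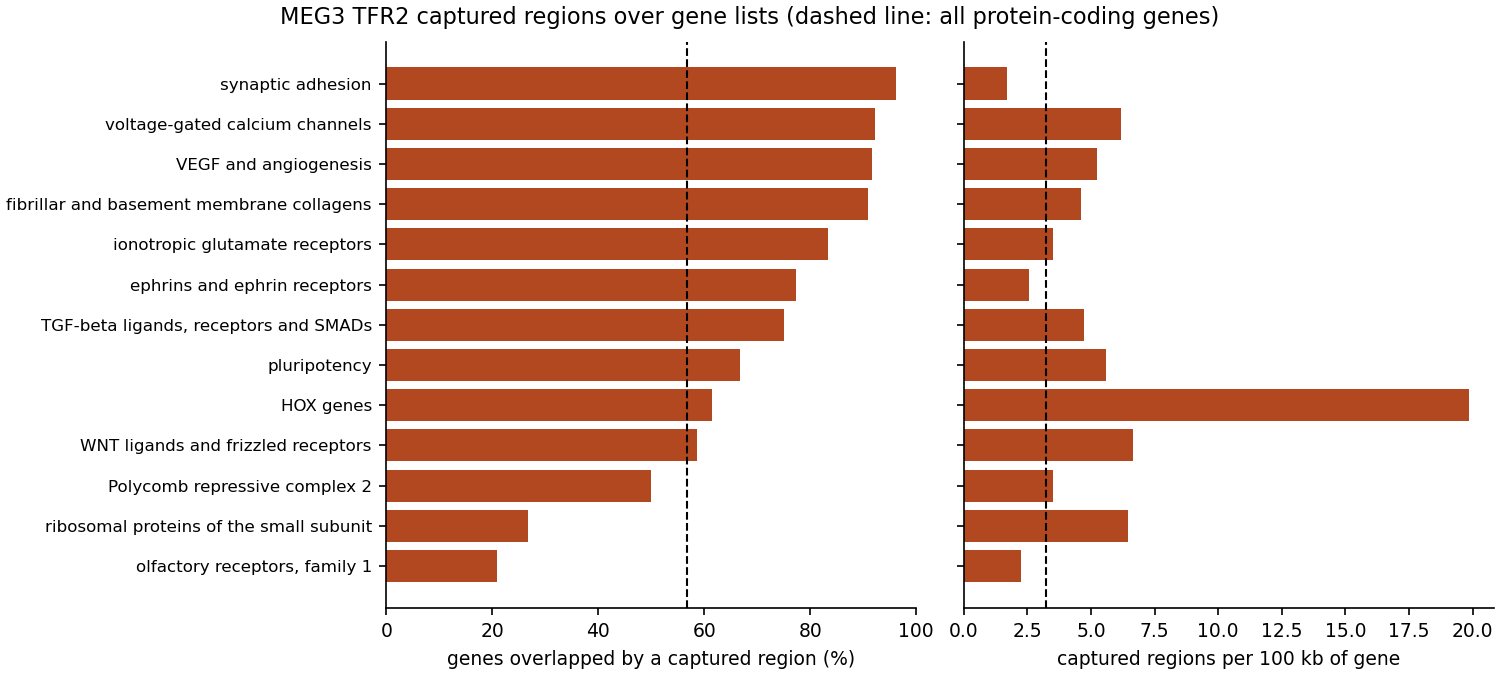
Left, the share of genes in each list described overlapped by a captured region (%). Right, captured regions per 100 kb of gene. The dashed lines mark all protein-coding genes, 56.8% and 3.22 per 100 kb. Synaptic adhesion genes lead on the left and HOX genes, at 19.8 per 100 kb, on the right.

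Of the 28 genes of TGF-beta ligands, receptors and SMADs, 26 were named and 21 overlapped, at 4.71 regions per 100 kb. The 4 highest were LTBP4 at a log2 ratio of 3.21, SMAD3 at 2.86, LTBP1 at 2.68 and LTBP2 at 2.47. SMAD3 is an effector of the pathway, and the LTBP genes encode proteins that hold latent TGF-beta in the matrix. Among the ligands, TGFB1 had 3 regions over it and TGFB3 had 4. TGFB2, another ligand, had none and was named by none.

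Of the receptors TGFBR1 had 1 captured region, with a log2 ratio of 1.33, TGFBR2 had 2 and TGFBR3 had 2. Over all coding genes with a captured region the median was 2. SMAD2, the other main effector, had 6 from 1.42 to 2.44. SMAD4, the partner of both, had none over it, and the region named for it lay 0.559 kb away with a log2 ratio of 0.96. The inhibitory SMAD7 had 4. Of TGFB2, TGFBR1 and SMAD2, named in earlier work on MEG3, TGFB2 had no captured region and the other two had some.

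Polycomb repressive complex 2, which methylates histone H3 and binds many noncoding RNAs, had 10 of 12 genes named and 6 overlapped, at 3.49 per 100 kb. Its cofactor JARID2 had 14 regions with a highest log2 ratio of 3.47. The accessory subunit PHF19 had 7, up to 2.35, and the catalytic EZH2 and the core EED had 2 each. SUZ12, another core subunit, had none over it. For AEBP2 the highest named region, at 2.92, lay 57.0 kb outside the gene. MTF2 had 1 region over it, at 1.18, and its highest named one, at 2.35, lay 0.733 kb outside.

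HOX genes, the clustered homeobox genes of body patterning, stood highest in density. Of 39 genes 31 were named and 24 overlapped, by 54 distinct regions, or 19.8 per 100 kb with regions over several genes counted for each. HOXC4 had 11 regions, up to a log2 ratio of 3.46, and HOXB3 had 12, up to 2.48. The highest regions named for HOXB3, HOXB4 and HOXB2, at 2.55, 2.48 and 2.29, lay 11.1 to 29.1 kb outside those genes. The HOXA cluster was sparser: HOXA3 had 6 regions, whereas HOXA2, HOXA4, HOXA5, HOXA7 and HOXA11 had none and were not named.

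Genes of the pluripotency network had 18 of 21 named and 14 overlapped, at 5.59 per 100 kb. ESRRB, a nuclear receptor of naive pluripotency, had 19 regions from 0.96 to 3.50 on the log2 scale. POU5F1, which encodes OCT4, had 1 at 2.12. SOX2 and NANOG had none over them, and SOX2 had a captured region within 1 kb. TERT had 5 regions over it and TFCP2L1 had 1, and the highest regions named for these 2 genes, at 2.29 and 2.60, lay 53.3 and 43.2 kb outside.

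Of 24 VEGF and angiogenesis genes 23 were named and 22 overlapped, at 5.24 per 100 kb. NOTCH4 and NOTCH1, receptors of vessel sprouting, reached 2.94 and 2.86. The growth factor VEGFB reached 2.91 and the ligand ANGPT1 3.17, and the growth factor VEGFA had 6 regions over it.

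Other signalling genes were read in the same way. Of 29 WNT ligands and frizzled receptors 26 were named and 17 overlapped, at 6.64 per 100 kb, with WNT4 at 2.69. The highest regions named for WNT5B, WNT16 and FZD7, at 3.50, 3.44 and 2.58, lay 9.02 to 24.2 kb outside. Of 22 ephrins and ephrin receptors, guides of axons, 19 were named and 17 overlapped, at 2.56 per 100 kb. EPHB2 had 21 regions over it, the highest at 2.92, and EPHA10 and EPHA8 reached 2.86 and 2.77. EPHB1 was named by 30 regions and overlapped by 15, and its highest named region, at 3.55, lay 7.88 kb outside, against 2.55 over the gene.

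Receptors and channels of neuronal membranes have long genes. Of 18 ionotropic glutamate receptor genes 15 were overlapped and 17 named, at 3.49 per 100 kb and a median length of 315 kb. GRIK4 had 48 regions with a highest log2 ratio of 3.91. The NMDA receptor gene GRIN2D had 10, up to 3.40. GRIK3 had 22, up to 3.03, and GRIN2A had 17, up to 2.55. Of 26 voltage-gated calcium channel genes 24 were overlapped and 25 named, at 6.18 per 100 kb. CACNA1C had 44 regions, up to 3.32. CACNA1G had 25, up to 3.70, and CACNA1E had 21, up to 3.62. CACNA1A had 31, up to 2.61, and its highest named region, at 3.07, lay 69.5 kb outside.

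Of 26 synaptic adhesion genes 25 were overlapped and 25 named, but the median gene was 1040 kb long and the density was 1.71 per 100 kb, below that of all coding genes. TENM2 and CNTN4 reached 4.60 each, OPCML 3.66 and NRXN3 3.51. This list thus had the highest overlapped share and the lowest density of the 14. Of 22 fibrillar and basement membrane collagen genes 20 were overlapped and 20 named, at 4.59 per 100 kb, with COL27A1 at 3.26, COL4A2 at 3.09 and COL4A3 at 2.79. The highest region named for COL5A1, at 3.29, lay 3.01 kb outside.

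A pair of lists were chosen as plain comparisons. Of 24 olfactory receptor genes of family 1, which are short and silent outside the nose, 9 were named and 5 overlapped, at 2.25 per 100 kb. A single region with a log2 ratio of 2.41 lay over both OR1L8 and OR1J2. The region named for OR1J2 had 1.44 and carried the name of OR1J1 as well, and the one named for OR1M1, at 2.15, lay 41.7 kb outside. Of 30 ribosomal protein genes of the small subunit 18 were named and 8 (26.7%) overlapped, at 6.46 per 100 kb. The overlapped share was near the 28.5% of all coding genes of up to 10 kb. Within 1 kb of an end 10 of the 30 had a captured region, against 22.2% of all coding genes. The highest regions named for RPS24, RPS9, RPS14 and RPS20, from 4.44 down to 2.07, all lay outside those genes, at 9.20 to 38.0 kb.

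The locus of MEG3 itself held captured DNA. Between DLK1 and DIO3, 837 kb of chromosome 14, there were 41 captured regions and 0 control regions. This is 49.0 captured per Mb, against 28.3 for chromosome 14 as a whole. Among the 1 Mb windows with a region the median was 19 and the 90th percentile 62.2, so many windows were as full. Their log2 ratios ran from 0.90 to 3.60 with a median of 1.53, and their widths from 150 to 650 bp.

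Over MEG3, at chr14:100826108-100861026, there were 3 captured regions. The first, chr14:100828651-100828900, lay 2.54 kb above the gene's lower end with a log2 ratio of 3.21. The second, chr14:100829501-100830050, had a log2 ratio of 0.91, and the last, chr14:100856701-100856950, had 1.94. The authors' names of these were MIR493, MIR337 and RTL1 with a plus mark. None of the 3 had a listed region with MEG3 TFR1 or GATA6-AS TFR1. The 2 regions the authors named for MEG3 lay 125 and 132 kb below it, with log2 ratios of 2.10 and 1.27.

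The highest ratio of the domain, 3.60, lay at chr14:100875451-100875750, between MEG3 and RTL1. RTL1, a gene derived from a retrotransposon, had 1 region over it, shared with MEG8, at 1.25. DLK1, a growth regulator expressed from the paternal copy, had 1 at 1.01. DIO3, a thyroid hormone deiodinase gene, had none over it, and the nearest named for it lay 12.3 kb away at 1.58. Below DLK1, BEGAIN, a gene of the postsynapse, had 7 captured regions over it.

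**Figure D5:**
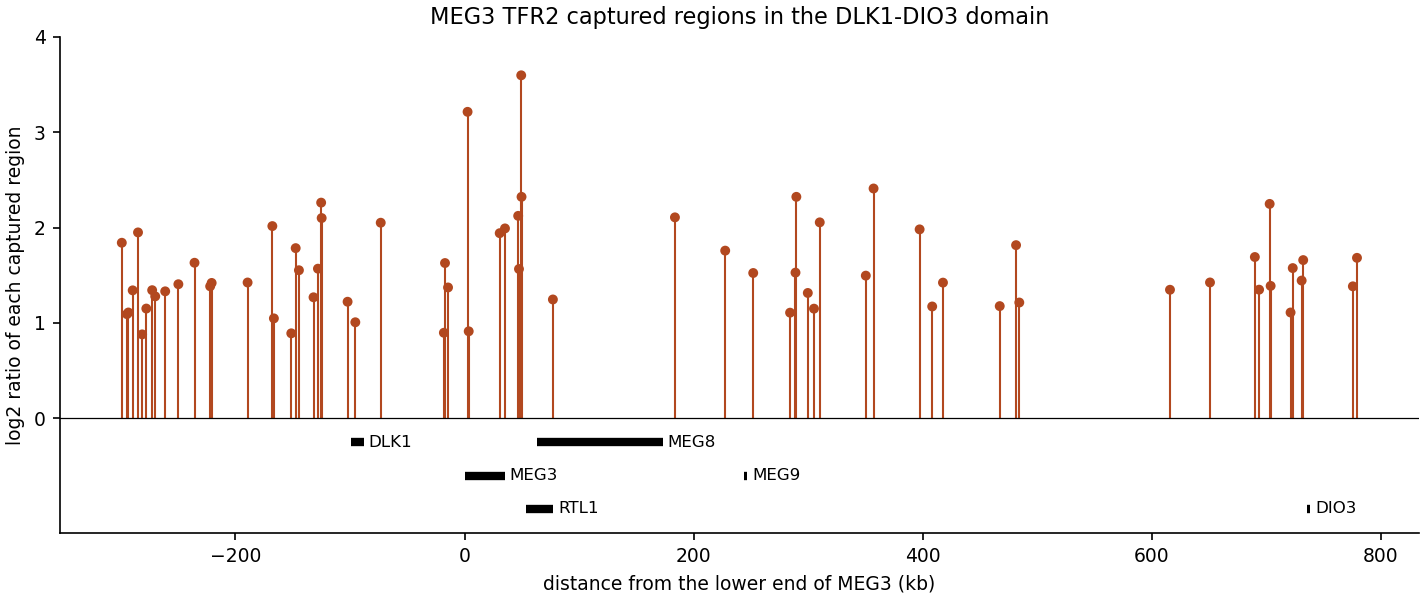
Each line is a captured region in and around the DLK1-DIO3 domain, at its distance from the lower end of MEG3 (kb), with its log2 ratio as height. Bars below mark 6 genes. The 2 tallest lines, 3.21 and 3.60, stand just inside and just above MEG3, and no control region lies in the stretch shown.

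Genes of miRNAs were read from their hairpins. Of 1558 miRNA hairpins in RefSeq, 56 (3.59%) overlapped a captured region and 3 (0.193%) a control region. The captured share was near the 3.2% of promoter windows, which are longer. The highest were MIR769 with a log2 ratio of 3.13 and MIR3138 with 2.87. None of the 56 lay in the DLK1-DIO3 domain, which holds many miRNA genes. The hairpins of this domain were not counted, and at a share of 3.59% a small set can easily hold none.

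Values of the other oligonucleotides at the same places are set side by side here. They were compared with the same no-oligo libraries, so the comparisons share their controls and their likeness was not assessed. At the NLGN2 window MEG3 TFR1 had a log2 ratio of 3.51 and GATA6-AS TFR1 2.72, beside 3.06 for MEG3 TFR2. At the GAP43 window they had 1.75 and 1.26, beside 1.98. At IGF2BP3 MEG3 TFR1 had 1.44 and GATA6-AS TFR1 had no listed region, beside 1.18. At ADGRL3 MEG3 TFR1 had none and GATA6-AS TFR1 had 1.86, beside 2.68. A purine run of at least 15 bases was present in 38.1% of windows captured with MEG3 TFR1 and in 27.9% with GATA6-AS TFR1, beside 33.9% with MEG3 TFR2.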

How the data were processed

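The members and gene lists were chosen with earlier results of these data known. Per the submitters' processing notes, reads were handled with FastQC and BWA 0.7.15-r1140 on hg38. The region caller, its options and any library scaling were not given in the sources used here. Input DNA, which the submitters mention, was not analysed here. The authors deposited 1 log2 ratio per region, positive in the captured and negative in the control list. That these deposited values are log2 was inferred: raised as powers of 2, 99.96% of captured and 98.2% of control values gave fractions of integers, with denominators up to 400 and a tolerance of 3e-10. All positions and widths were multiples of 50 bp.

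Depth and library spread are unknown. All regions were used, with starts counted from 1. Genes and promoter windows came from RefSeq tables on GRCh38.p14, without a genome, and 1 list gene was matched by a synonym. Overlap was at least 1 bp. Genes and regions were named by rule: the 10 highest captured regions, the 10 coding genes named most and the 10 densest of at least 20 kb, the 5 widest regions and 5 fullest clusters, their control counterparts, up to 4 highest genes per list, the MEG3 domain with TGFB2, TGFBR1 and SMAD2, and 8 promoters. A few items that this rule names, and 1 of the 14 lists, are not reported here. Other genes were picked from the lists to show members with and without regions, after their values were seen. The classes of GC content and of run length and the profile at gene starts were added after seeing the data. Functions were tested on simulated lists. Software was scipy 1.17.1, pandas 2.3.3 and numpy 2.4.6 under Python 3.11.15.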

Additional observations from a re-analysis of the deposited data

How the results depend on the processing

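No paired analysis was possible because the lists hold 1 value per region and none per library. For the same reason no library could be left out. Keeping the 50% of regions with the largest ratios left 36780 captured and 5492 control regions, with median log2 ratios of 1.76 and -1.76 and median widths of 300 and 200 bp. Keeping log2 ratios of at least 1.5 in size left 32755 and 5076, with medians of 1.81 and -1.79 and the same widths of 300 and 200 bp. Captured regions per control region were then 6.45 in all, 12.3 on chromosome 19 and 3.81 on chromosome 21, so chromosome 19 came above the 12.1 of chromosome 1. Named genes were then 9289 for captured and 2805 for control regions. Without chromosome 1 the ratio of captured to control counts was 6.44, and 21.6% of captured regions were in clusters.

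Clusters depended on the gap allowed. With 2 kb, 7.56% of captured and 5.05% of control regions were in clusters, and with 10 kb, 40.5% and 9.76%. After joining regions within 200 bp the shares were 20.4% and 6.69%. Gene counts depended on the rule. Within 1 kb of either end there were 4441 genes for captured and 444 for control regions, and within 5 kb 1955 for control. Of the list genes, 287 were named, 102 had a region within 1 kb of an end, and 165 had an unmarked name, as had 8061 of all coding genes for captured regions, a rule added after seeing the data. The lists above the share of all genes numbered 12 of 14 by name, 11 by overlap, 10 within 1 kb, 10 with log2 ratios of at least 1.5 and 9 by unmarked names. Polycomb repressive complex 2 was above that share by name and below it by overlap, VEGF genes fell below it within 1 kb, with 4 of 24, and ribosomal genes rose above it there, with 10 of 30. Purine runs of at least 15 bases were in 38.7% of windows covered to at least 50% by a captured region. The cause of these changes was not tested. Without depth or library values, the error of a single log2 ratio is unknown.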
